A study of Mus musculus with 28 samples.

Results

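The 9 genes described here mark sensory neurons, the cells of the dorsal root ganglia whose axons run through the peripheral nerve while their cell bodies lie outside it. They were chosen by name as genes of sensory neuron identity and make up 9 of the 41605 gene identifiers in the table, of which 17700 were tested. Isl1, Pou4f1, Prdm12, Runx1, Runx3 and Drgx encode transcription factors. Avil, Trpv1 and Scn10a encode products of the differentiated neuron. All are protein-coding, and gene positions below are those of GENCODE M21 on GRCm38. All 9 were measured by bulk RNA sequencing of polyadenylated RNA in 28 libraries of mouse peripheral nerve, with 4 libraries at each of 7 stages.

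All samples came from wild-type C57BL/6J mice that were not perfused. The stages were embryonic days 13 and 17 (E13 and E17), as labelled, and postnatal days 1, 5, 14, 24 and 60 (P1 to P60). Each E13 library was made from various nerves taken distal to the dorsal root ganglia and pooled from 2 embryos, although the labels name sciatic nerve at every stage. Each E17 library pooled the sciatic nerves of 2 embryos, and each postnatal library came from 1 mouse. Epineurium and perineurium were stripped off from E17 on but not at E13. Age, kind of nerve and stripping therefore cannot be told apart between E13 and E17.

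In the embryo, Isl1 and Pou4f1 act together in newborn sensory neurons and switch them from a common neurogenic programme to subtype programmes. Prdm12 and Runx1 are needed for the nociceptive lineage, Runx3 for proprioceptive neurons, and Drgx for small-diameter neurons and their projections. Their messages are made in the cell body, so a nerve free of ganglia holds mostly glia, connective tissue and vessels together with whatever messages travel in axons. None of the 9 is strictly confined to sensory neurons: Isl1 also marks sympathetic and motor neurons, and Runx1 and Runx3 are also expressed in blood and connective tissue lineages.

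Total counts ran from 13899895 to 37662780 per library, and values below are CPM, that is counts scaled to a common total with TMM factors. On this scale 3 counts, the floor used here, stood for 0.0859 to 0.236 CPM. A gene was called when its adjusted p from the edgeR quasi-likelihood test was under 0.05 over all 17700 genes and its fold change was at least 2. The slope of a library's deviation from its stage mean against gene GC content was -1.02 per 10 percentage points in E13 replicate 1, 0.80 in E13 replicate 4 and -0.47 in P1 replicate 1, on the log2 scale. It lay between -0.18 and 0.22 in the other 25 libraries. These 3 libraries stood apart in this respect, and fold changes of the 9 genes that were lost as calls or moved by over 1.5 times without one of them are also given without it. Schwann lineage markers, which define the labelled nerve, were present at every stage, and their 6 genes summed to 304 to 620 CPM at E13 and to 2430 to 4960 CPM in all later libraries. At E13 their sum was below that of the pan-neuronal genes (3140 to 5040 CPM) and of the erythroid genes (4350 to 26900 CPM) in every library, and in replicate 2 also below that of the skeletal muscle genes (725 CPM).

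All 9 genes were lower at E17 than at E13, by 3.52-fold for Runx1 to 198-fold for Pou4f1 where both stages had counts above the floor. Of all genes tested, 21.2% were called lower and 14.2% higher in the same comparison. For 8 of the 9, all but Runx1, every E17 library lay below every E13 library, as it did for 25.0% of all genes tested. The sum over the 9 genes fell from 205 ± 95.6 CPM (SD, n = 4) at E13 to 6.66 ± 0.676 CPM at E17. Only 5 of the 9 passed the filter on low counts without the E13 libraries; Pou4f1, Prdm12, Scn10a and Drgx passed through E13 alone, so their falls are a description. Of the 5 genes 4 showed no overlap, and 21.6% of the 16632 genes that passed without E13 lay lower at E17 in this way. Over the 5 genes the median log2 fold change was -3.76, compared with -0.08 over all genes tested.

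**Figure D1:**
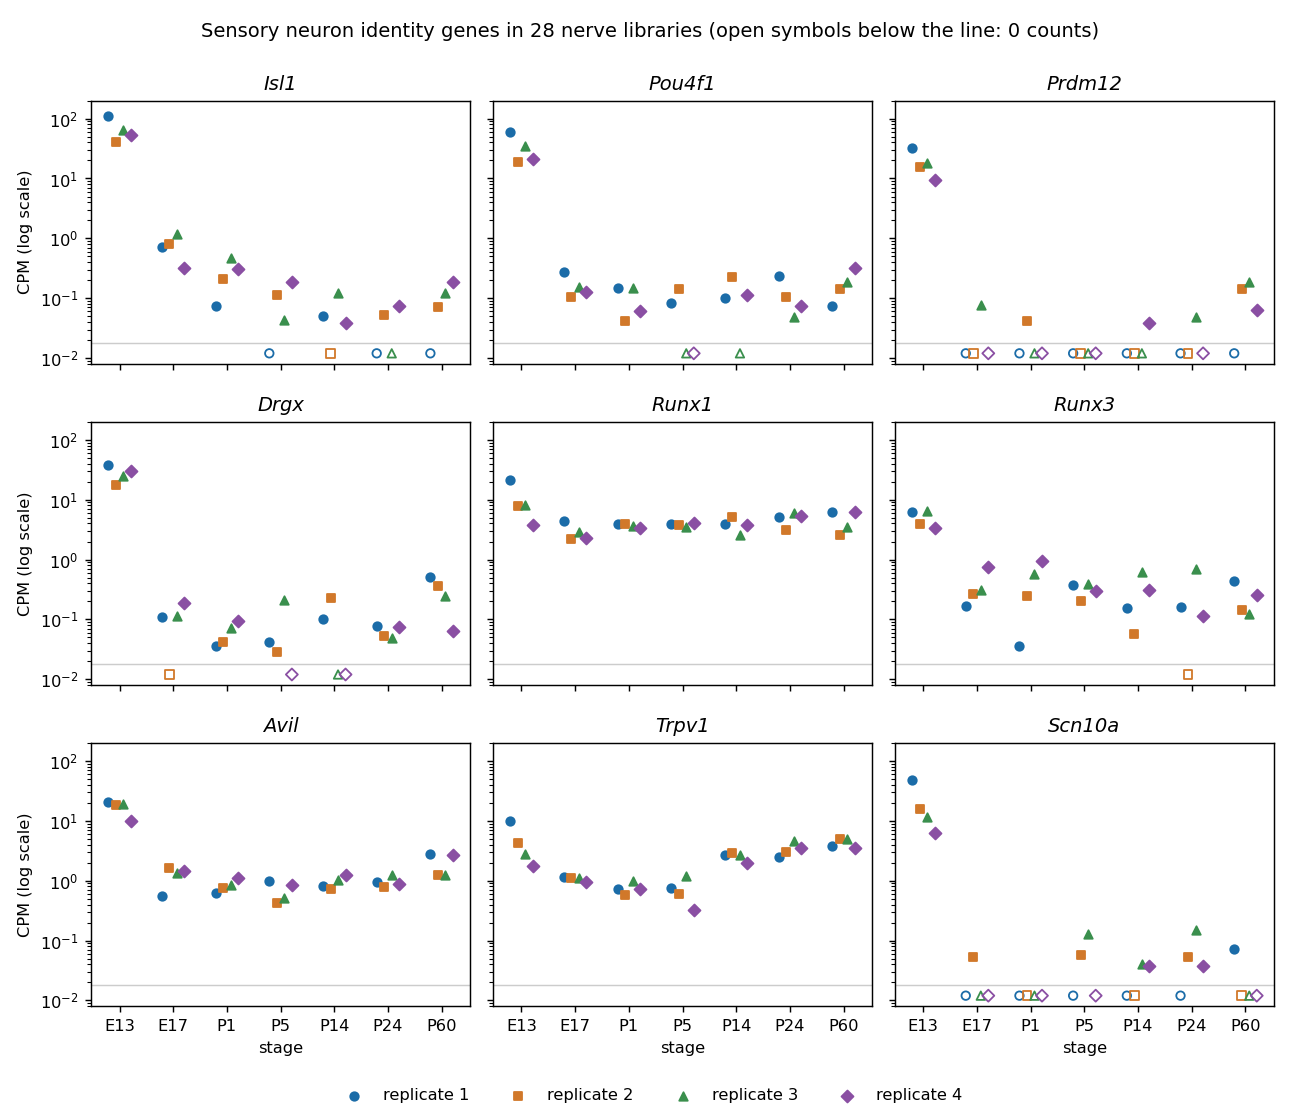
Level of each gene in every library. The y axis is CPM on a log scale, the x axis the stage, and each symbol 1 of the 4 libraries of a stage; open symbols below the grey line are libraries with 0 counts. At E13 every library lies above the E17 libraries for all genes but Runx1, and Trpv1 climbs again from P14.

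Among the transcription factors, Isl1, a LIM-homeodomain factor (chr13:116298281-116309689, minus strand), measured 109, 41.3, 65.5 and 52.6 CPM in E13 replicates 1 to 4 and 0.715, 0.792, 1.20 and 0.314 CPM at E17. Its log2 fold change was -6.41 ± 0.40 (SE; edgeR adjusted p = 2.3e-13). Every E13 library was far above every E17 library, and replicate 1 was the highest of the E13 libraries. Pou4f1, a POU-homeodomain factor also known as Brn3a (chr14:104461676-104467999, minus strand), measured 59.0, 19.1, 35.5 and 21.5 CPM at E13. Its E17 libraries held 5, 2, 4 and 2 counts, and the log2 fold change was -7.63 ± 0.49 (SE), given as a description because the gene passed the filter on low counts through E13 alone. Of all Isl1 counts 98.4% fell in the E13 libraries, and the same percentage held for Pou4f1.

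Prdm12, a chromatin regulator required for nociceptors (chr2:31640037-31655795, plus strand), measured 31.8, 15.7, 18.4 and 9.26 CPM at E13. No later library held more than 3 counts of it, and 17 of the 24 later libraries held 0. Against 3 counts in the shallowest E17 library, its mean of 18.8 CPM at E13 was at least 99.6-fold higher. Prdm12 shares 200 exonic bases with the antisense gene Gm13425, which measured 4.12 ± 0.99 CPM at E13, so reads in that stretch could not be assigned with certainty. Drgx, a paired-like homeobox gene listed in the annotation as Prrxl1 (chr14:32599407-32649246, plus strand), measured 37.9, 17.6, 25.0 and 30.6 CPM at E13. With at most 3 counts in any E17 library it was at least 147-fold lower there. It was the 1 member for which E13 replicate 4 was the second highest E13 library.

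The Runx genes fell less far. Runx1, a runt-domain factor (chr16:92601466-92826149, minus strand), measured 21.3, 7.75, 8.02 and 3.79 CPM at E13 and 4.34, 2.17, 2.87 and 2.26 CPM at E17. The lowest E13 library lay below the highest E17 library, so the stages overlapped. The log2 fold change was -1.81 ± 0.37 (SE; edgeR adjusted p = 0.00011), and without E13 replicate 1 it was -1.18 (edgeR adjusted p = 0.014). Runx3 (chr4:135120652-135177990, plus strand) measured 6.16, 3.96, 6.43 and 3.37 CPM at E13 and 0.165, 0.264, 0.310 and 0.754 CPM at E17, with no overlap. Its log2 fold change was -3.76 ± 0.65 (SE; edgeR adjusted p = 1.7e-05), and 75.1% of its counts fell in the E13 libraries. Runx1 shares 106 exonic bases with the antisense gene Gm26626, which held 18 counts over all libraries.

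Among the effector genes, Scn10a, which encodes the nociceptor sodium channel Nav1.8 (chr9:119608456-119719322, minus strand), measured 47.7, 16, 11.8 and 6.37 CPM at E13. It had 1 count in 1 E17 library and 0 in the others, which placed it at least 109-fold lower. This bound rests in large part on E13 replicate 1, without which the E13 mean was 11.4 CPM and the bound 60.4-fold. As for Prdm12, no library after E13 exceeded 3 counts, and 99.4% of its counts lay in E13. Avil, which encodes the actin-regulating protein advillin (chr10:127000709-127020994, plus strand), measured 20.4, 18.6, 19.0 and 10 CPM at E13 and 0.550, 1.64, 1.36 and 1.45 CPM at E17. The log2 fold change of Avil was -3.76 ± 0.33 (SE; edgeR adjusted p = 1.5e-10). Trpv1, the heat- and capsaicin-gated cation channel (chr11:73234292-73261242, plus strand), measured 10, 4.24, 2.78 and 1.74 CPM at E13 and 1.15, 1.11, 1.09 and 0.943 CPM at E17. Its log2 fold change was -2.13 ± 0.39 (SE; edgeR adjusted p = 3.2e-05), the E13 libraries spread widely and the E17 libraries lay close together. Without E13 replicate 1 it was -1.45 (edgeR adjusted p = 0.00017), and with limma-voom it was -1.41 (adjusted p = 3.9e-05).

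**Figure D2:**
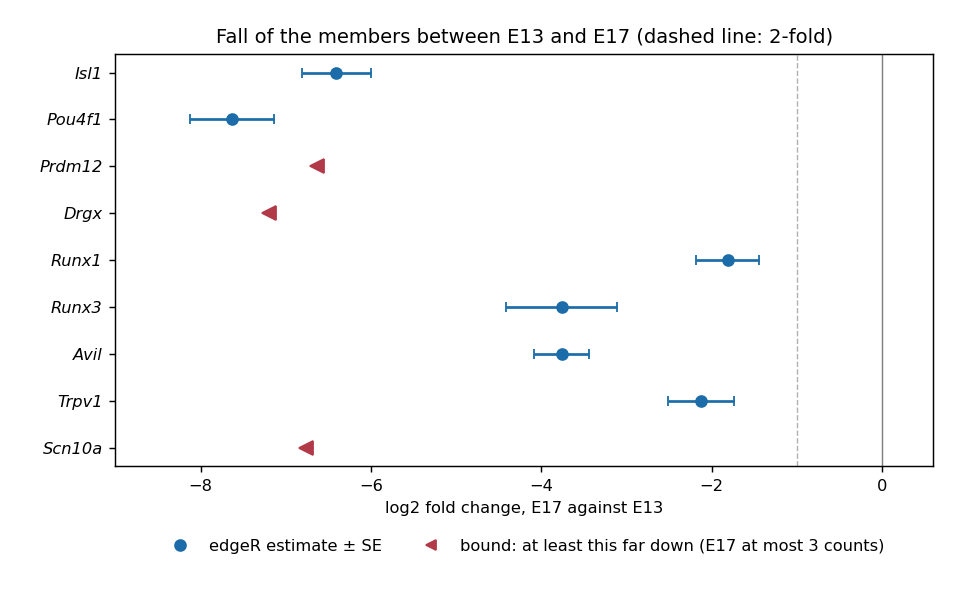
Log2 fold change of each gene, E17 against E13. Circles with bars are edgeR estimates ± SE; triangles are the smallest fall that at most 3 counts in every E17 library allow (Prdm12, Drgx and Scn10a). All 9 lie beyond the dashed line of a 2-fold fall, with Runx1 and Trpv1 nearest to it.

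In bulk tissue, fewer cells of a type and less RNA per cell cannot be told apart. The calls of the 5 genes that passed the filter without E13 were kept in each of the 19 alternative analyses of this comparison, including the removal of a GC trend and the fit without E13 replicates 1 and 4. Leaving both out was chosen after their GC slopes had been seen.

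Compared per kilobase of exon, the order of levels at E13 began with Isl1 at 17 ± 7.53 CPM per kb (SD, n = 4). Prdm12 at 7.6 ± 3.84, Pou4f1 at 7.23 ± 3.92, Drgx at 6.66 ± 2.06 and Avil at 5.01 ± 1.40 CPM per kb followed. Scn10a stood at 2.57 ± 2.33, Trpv1 at 1.27 ± 1.00, Runx3 at 0.995 ± 0.308 and Runx1 at 0.849 ± 0.634 CPM per kb. Neighbours in this order had overlapping libraries in every case, whereas the Isl1 libraries did not overlap those of Drgx or of any gene ranked after it. At P60 the order was led by Trpv1 at 1.18 ± 0.203, Avil at 0.581 ± 0.250 and Runx1 at 0.384 ± 0.157 CPM per kb. Drgx was next at 0.0711 ± 0.0454 CPM per kb, and the other 5 genes were lower still.

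Promoter sequence is shown for Pou4f1, which fell furthest of the genes with counts above the floor, for Scn10a, an effector gene that fell to the floor, and for those that hold the hexamer TGTGGT, or ACCACA on the other strand. This is the core sequence that Runx proteins recognise, and Runx1 and Runx3 are themselves members. Each line gives the 250 bases before the RefSeq transcription start (GRCm38.p6), 5′ to 3′ along the gene, with the hexamer in capitals.
Pou4f1 (chr14:104468000-104468249, - strand): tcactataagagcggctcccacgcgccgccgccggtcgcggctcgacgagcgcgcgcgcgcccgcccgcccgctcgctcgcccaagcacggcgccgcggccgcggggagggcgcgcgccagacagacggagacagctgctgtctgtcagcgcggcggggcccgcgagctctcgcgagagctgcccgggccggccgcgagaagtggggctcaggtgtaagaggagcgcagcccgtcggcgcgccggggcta
Scn10a (chr9:119719033-119719282, - strand): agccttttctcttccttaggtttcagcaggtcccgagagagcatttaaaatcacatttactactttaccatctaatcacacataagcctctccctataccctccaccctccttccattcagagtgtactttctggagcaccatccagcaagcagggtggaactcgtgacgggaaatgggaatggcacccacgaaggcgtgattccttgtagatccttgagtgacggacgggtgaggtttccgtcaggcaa
Drgx (chr14:32599677-32599926, + strand): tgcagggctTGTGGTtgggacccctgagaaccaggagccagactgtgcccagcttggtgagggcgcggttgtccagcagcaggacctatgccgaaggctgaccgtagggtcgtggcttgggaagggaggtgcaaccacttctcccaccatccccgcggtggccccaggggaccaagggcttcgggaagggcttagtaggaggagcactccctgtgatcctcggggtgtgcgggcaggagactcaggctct
Avil (chr10:127000459-127000708, + strand): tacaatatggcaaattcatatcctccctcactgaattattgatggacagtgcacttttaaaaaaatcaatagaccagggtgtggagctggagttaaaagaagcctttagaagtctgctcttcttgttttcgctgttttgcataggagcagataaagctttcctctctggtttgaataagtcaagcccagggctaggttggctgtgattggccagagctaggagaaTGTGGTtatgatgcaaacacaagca
Trpv1 (chr11:73233899-73234148, + strand): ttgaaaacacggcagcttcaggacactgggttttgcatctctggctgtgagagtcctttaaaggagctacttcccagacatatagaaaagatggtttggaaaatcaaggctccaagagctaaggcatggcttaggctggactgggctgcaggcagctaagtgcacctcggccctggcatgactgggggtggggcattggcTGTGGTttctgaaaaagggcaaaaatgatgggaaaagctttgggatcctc
Runx3 (chr4:135120395-135120644, + strand): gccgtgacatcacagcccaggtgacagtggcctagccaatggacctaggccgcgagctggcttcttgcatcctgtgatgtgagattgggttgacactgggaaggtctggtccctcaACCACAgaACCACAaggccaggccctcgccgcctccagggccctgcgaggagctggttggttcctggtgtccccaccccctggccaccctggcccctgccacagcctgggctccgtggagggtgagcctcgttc

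The hexamer stood in 4 of 11 windows of the 9 genes, compared with 14% of 32851 windows of this length over all genes. Relative to the start site it began at -25 in Avil, -50 in Trpv1 and -241 in Drgx. The window of the upstream Runx3 start held it 2 times, at -134 and -126, and 1.27% of all windows held it 2 or more times. None was found in the windows of Isl1, Pou4f1, Prdm12 and Scn10a, in either window of Runx1 or in that of the downstream Runx3 start. The 4 genes with a match differed in course: Drgx fell to the floor at E17, whereas Trpv1 was read in every library. A match of letters is a description and says nothing about binding.

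The 4 E13 libraries differed widely among themselves. Replicate 1 was the highest of the 4 for 8 of the 9 genes, and replicate 3 was the highest for Runx3. Replicate 4 was the lowest for 6 genes and replicate 2 for Isl1, Pou4f1 and Drgx. The highest library exceeded the lowest by 1.91-fold for Runx3 to 7.49-fold for Scn10a. Replicates 1 and 4 were also the libraries with the steepest GC slopes, of opposite sign. After the GC trend was removed, replicate 1 was the highest for all 9 genes, the same libraries were lowest for as many genes as before, and the ratios ran from 2.15 for Isl1 to 10.4 for Scn10a, with Runx3 at 4.65 and Prdm12 at 7.82 (3.43 before).

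Sympathetic markers ran in another order. The sum over the 9 sensory genes was 344, 144, 192 and 139 CPM in E13 replicates 1 to 4. The sum over 8 sympathetic neuron genes was lowest in replicate 1 and highest in replicate 4, at 46.5, 89.9, 272 and 545 CPM. The ratio of the sums was 7.39 in replicate 1, 1.6 in replicate 2, 0.706 in replicate 3 and 0.256 in replicate 4. The sum over 17 pan-neuronal genes varied less, from 3140 CPM in replicate 2 to 5040 CPM in replicate 1, and the sensory sum per 1000 pan-neuronal CPM was 68.1, 45.9, 40.1 and 28.1. Motor neuron genes summed to 161 to 268 CPM, of which Prph, an intermediate filament gene that sensory neurons also express, made up 114 to 225 CPM and the other 7 genes 32.9 to 47.1 CPM. The sum over all 8 was lowest in replicate 1 and highest in replicate 4, but this order changed with the GC correction. Skeletal muscle genes were high in replicate 2, at 725 CPM compared with 33.4 to 68.9 CPM in the other three. Erythroid genes summed to 26900 CPM in replicate 4, the library lowest for 6 of the 9 genes, compared with 4350 to 7450 CPM in the others. The ratio of the sensory to the sympathetic sum ran in the order of the GC slopes of the 4 libraries. After removal of the GC trend it was 5.93, 1.65, 0.728 and 0.319, in the same order, while the motor neuron sum was 257, 146, 196 and 192 CPM in replicates 1 to 4 and thus ranked the libraries as the corrected sensory sum did (369, 140, 187 and 148 CPM). The corrected muscle sum was 694 CPM in replicate 2 and 41.3 to 65.3 CPM in the others. The part of these differences in the values of the 9 genes was not tested.

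**Figure D3:**
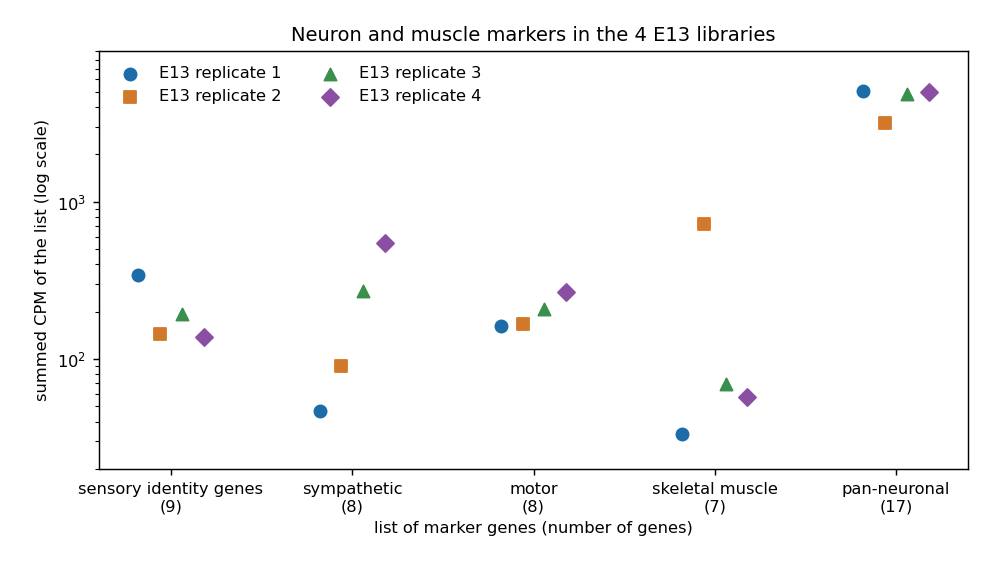
Summed CPM of 5 lists of marker genes in the 4 E13 libraries. The y axis is a log scale, and each symbol is 1 library. Replicate 1 is the highest for the sensory list and the lowest for the sympathetic list, and replicate 2 is the highest for muscle.

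The other lists moved between E13 and E17 as well. Of 39 further genes of sensory neurons, 32 were tested, and 22 were called lower and 2 higher. Among them 9 of 12 early fate factors and all 8 tested peptide, transmitter and related genes were lower, as were 3 of 6 tested channels and 2 of 6 neurotrophin and GDNF receptors. Of the 32 genes 13 passed the filter on low counts through E13 alone, so that a fall was nearly fixed; of the other 19, 9 were lower and 2 higher. Slc17a6, the vesicular glutamate transporter of sensory neurons, fell from 35.4 ± 27.7 CPM to at most 1 count per library, at least 188-fold (115-fold without E13 replicate 1). Pvalb, a calcium-binding protein of proprioceptors, had the smallest called fall at 1.30 on the log2 scale. Ntrk3 and Ngfr were higher at E17, by 1.80 and 2.05 on the log2 scale, and both are also expressed by cells of the nerve itself.

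Of 17 pan-neuronal genes 16 were called lower, from Rbfox3 (at least 158-fold) to Nefl, which fell by 3.54 on the log2 scale. Nefh, the heavy neurofilament chain, was the exception and rose by 1.24. All 8 sympathetic genes were lower, from Th at -5.75 to Ddc at -3.30, as were all 8 motor neuron genes, among them Isl2 (at least 36.7-fold), Lhx3 (at least 26.0-fold) and, with the smallest fall, Slc5a7 at -2.29. The summed pan-neuronal level was 3140 to 5040 CPM at E13 and 162 to 215 CPM at E17. Among the genes that passed the filter without E13, 15 of 16 pan-neuronal, 5 of 5 sympathetic and 2 of 2 motor neuron genes were lower; the other 6 motor, 3 sympathetic and 1 pan-neuronal genes passed through E13 alone. The part of these falls in the values of the 9 genes was not tested.

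Lists of other tissues were mixed. All 6 Schwann lineage genes were called higher at E17. Of the 5 satellite glia genes 4 were lower, as were 6 of 7 skeletal muscle genes and all 8 erythroid genes. So were 7 of 8 immune genes, 3 of 5 cartilage and bone genes and 1 of 2 epidermis genes tested. In these lists, 2 muscle genes and 1 erythroid gene passed the filter on low counts through E13 alone. Among the other genes, 4 of 5 muscle and 7 of 7 erythroid genes were lower. Of all genes tested, 21.2% were called lower and 14.2% higher. Against their lists, Kcnj10, a potassium channel of satellite glia, rose by 3.52 on the log2 scale, Ckm, the muscle creatine kinase, by 3.39 and Col9a1, a cartilage collagen, by 2.17. Of 5 mast cell genes 4 were called higher, but for none of the 5 were the libraries of the stages free of overlap, and the mast cell sum was 111 CPM in E17 replicate 4 compared with 36.0 to 47.3 CPM in the other E17 libraries. Of 5 endothelial and mural genes 2 rose, and Acta2, a smooth muscle actin, fell by 4.04 on the log2 scale. Of 5 nerve mesenchyme genes 2 rose.

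The genes most like the members in profile were sought among the tested genes, leaving out the members and genes with clone or unmatched names. The measure was the correlation of their log2 CPM with the mean of the standardised members over the 28 libraries. The 10 highest were Neurod4 (Pearson r = 0.979), Neurod1, Pou4f2, Ranbp3l and Htr5a (each 0.978), Meis2 and Tspyl4 (0.977), and Mgat4c, Glra2 and Rmst (0.975). Neurod4, Neurod1 and Pou4f2 stood on the list of early sensory fate factors. Neurod1 measured 4.29 ± 3.95 CPM at E13 and 0 counts at E17, whereas Tspyl4 fell from 175 ± 32.4 to 4.57 ± 1.21 CPM. The points share libraries and the profile is mainly the step from E13 to E17, so the values describe and do not test. Of the members, Prdm12 lay closest to the shared profile (r = 0.978) and Runx1 (0.741) and Trpv1 (0.539) farthest from it. Each member is itself part of that mean, so these values are not set against those of the other genes.

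After E13 the 9 genes parted into those near the floor and those that remained readable. Prdm12 and Scn10a had at most 3 counts in each of the 24 later libraries. Pou4f1 had at most 5 counts and Drgx at most 7 in any later library, with 17 and 19 of the 24 libraries at or under 3 counts. Isl1 and Runx3 were low but above the floor in some libraries. Avil, Trpv1 and Runx1 were read above 3 counts in all 24. Over the stages from E17 to P60, Isl1 (edgeR adjusted p = 2.2e-05), Avil (0.0041) and Trpv1 (5.7e-07) changed by the test of any difference between stages. That was 3 of the 5 genes that pass the filter on low counts without E13. Of all genes tested, 51.4% changed from E17 to P60 and 70.0% over all 7 stages. The members are not read against these shares, because 4 of the 9 passed the filter through E13 alone and had to differ between stages.

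**Figure D4:**
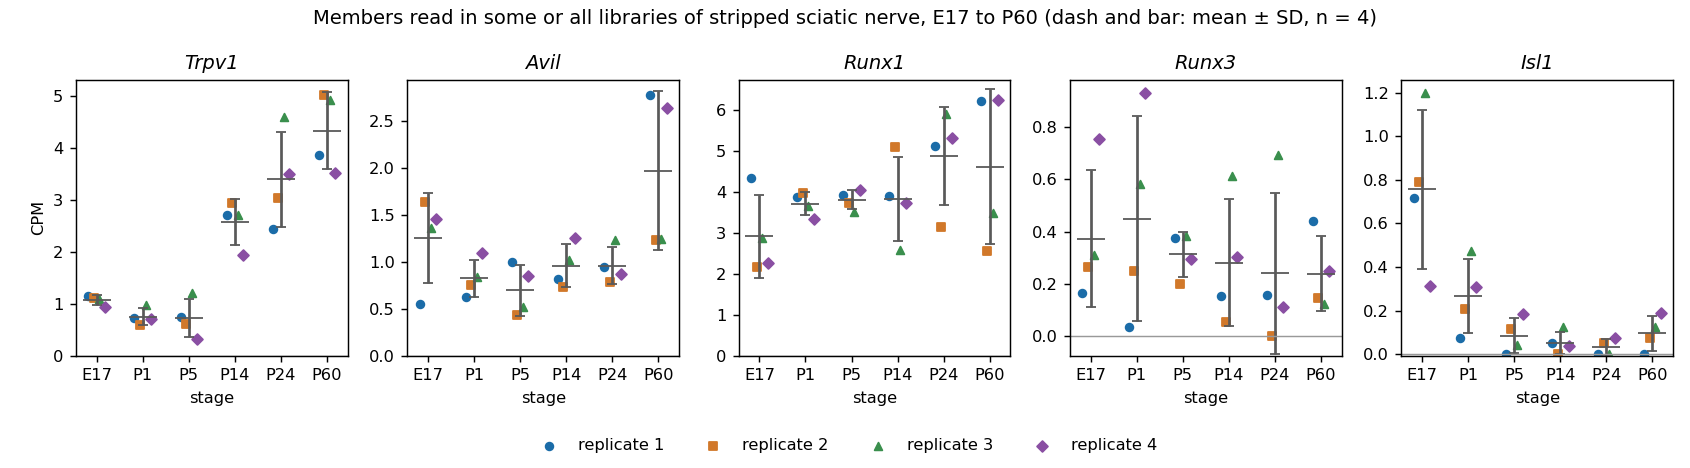
Genes read above 3 counts in some or all libraries of stripped sciatic nerve from E17 to P60. The y axes are CPM on linear scales that differ between panels, symbols are libraries, and dashes with bars are the mean ± SD of 4 libraries. Trpv1 steps up between P5 and P14, Isl1 declines to at most 3 counts per library from P14 on, and Runx1 and Runx3 show no called step.

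Trpv1 rose again in the postnatal nerve. It measured 0.750, 0.602, 1.20 and 0.330 CPM at P5 and 2.71, 2.94, 2.70 and 1.94 CPM at P14. Every P14 library was above every P5 library. The log2 fold change was 1.84 ± 0.40 (SE; edgeR adjusted p = 0.00079), and the call was kept in all 19 alternatives, with log2 values from 1.60 to 2.19. Trpv1 was the 1 member called in this comparison, in which 7.11% of all genes were called higher.

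Trpv1 stood at 3.39 ± 0.91 CPM at P24 and 4.33 ± 0.745 CPM at P60, with overlapping libraries and no call in either step. From E17 to P60 its log2 fold change was 2.00 ± 0.39 (SE; edgeR adjusted p = 7.4e-05), from 1.07 ± 0.0916 to 4.33 ± 0.745 CPM with no overlap. The E13 mean was 4.69 ± 3.69 CPM, and the E13 libraries spanned 1.74 to 10 CPM, on both sides of the P60 mean. Between P5 and P14 the pan-neuronal sum ranged from 74.2 to 92.2 CPM and then from 85.1 to 103 CPM. The endothelial and mural sum ranged from 333 to 418 and from 427 to 521 CPM, with no overlap, although none of its 5 genes was called. Cartilage and bone genes went from 75.9 to 86.8 CPM down to 10.5 to 13 CPM. The Schwann lineage sum went from 4120 to 4490 CPM up to 4770 to 4960 CPM without overlap, with 1 of 6 genes called higher. The skeletal muscle sum went from 1.21 to 2.24 CPM up to 2.82 to 7.22 CPM without overlap, with 1 of 7. The satellite glia sum went from 682 to 808 CPM down to 624 to 675 CPM without overlap. Of its 5 genes 3 were called higher and 1 lower. Of the other lists, 2 of 5 mesenchymal and 1 of 8 erythroid genes were called higher. So was 1 of 8 sympathetic genes, but none of the 5 that passed the filter without E13. Lower calls went to 3 of 5 cartilage and bone genes. Their part in the rise of Trpv1 was not tested.

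Avil stayed between 0.697 ± 0.270 CPM (P5) and 1.25 ± 0.480 CPM (E17) through P24. At P24 the libraries measured 0.946, 0.785, 1.23 and 0.865 CPM, and at P60 2.78, 1.23, 1.24 and 2.64 CPM. At P60, 2 libraries were well above all P24 libraries, and the other two lay at the upper end of the P24 range. The log2 fold change was 1.04 ± 0.35 (SE; edgeR adjusted p = 0.04), with 2.55% of all genes called higher. This call was lost in 9 of 19 alternatives, among them those without P60 replicate 1 (0.83) and P60 replicate 4 (0.86; edgeR adjusted p = 0.15 for both). With the replicate block the adjusted p was 0.054.

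Avil shares 165 exonic bases with Tsfm on the opposite strand, and whether counting used the strand is not given in the sources used here. Tsfm went from 6.10 ± 1.18 CPM at P24 to 4.34 ± 1.38 CPM at P60, opposite in direction to Avil. Over the same step the pan-neuronal sum went from 152 to 176 CPM to 223 to 258 CPM, and the satellite glia sum went from 554 to 615 CPM to 810 to 967 CPM. Of the 5 satellite glia genes none was called higher and 2 were lower (median log2 fold change -0.13), and the sum followed Glul, which went from 380 ± 25.4 to 731 ± 68.1 CPM. The motor neuron sum went from 5.57 to 8.36 CPM to 10.5 to 15.8 CPM, with 2 of 8 genes called higher. Of these 8 genes 6 passed the filter on low counts through E13 alone, and of the other 2 genes 1 was called higher. The mast cell sum went from 6.22 to 17.6 CPM to 27.3 to 44.7 CPM, with 1 of 5 genes called higher. Of the cartilage and bone genes 3 of 5 were called lower. Of the 8 erythroid genes 4 were called lower and 1 higher. The part of these transcripts in the Avil value was not tested.

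Isl1 went on falling after E17. The 4 P1 libraries measured 0.0729, 0.208, 0.474 and 0.310 CPM, which overlapped the E17 libraries. The log2 fold change from E17 to P1 was -1.53 ± 0.50 (SE; edgeR adjusted p = 0.02), the 1 call among the members, with 5.41% of all genes called lower. The call was lost without E17 replicate 3 (-1.18; adjusted p = 0.13), without P1 replicate 1, the library with the GC slope (-1.23; adjusted p = 0.068), and without P1 replicate 2 (-1.44; adjusted p = 0.053). From P14 on no library held more than 3 counts. From E17 to P60 Isl1 was therefore at least 3.45-fold lower (edgeR adjusted p = 0.00069), with 17.5% of all genes called lower and 22.2% higher.

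E17 replicate 3 had the highest Isl1 level of its stage (1.20 CPM) and the highest Dbh (4.50 CPM), which encodes an enzyme of noradrenaline synthesis. P1 replicates 3 and 4, the highest for Isl1, held Dbh at 1.82 and 2.17 CPM, compared with 0.0729 and 0.125 CPM in replicates 1 and 2. The sum over the sympathetic list ranged from 6.87 to 11.4 CPM at E17 and from 1.71 to 7.55 CPM at P1. The other libraries did not follow one order for both measures, since E17 replicate 4 had the lowest Isl1 level of its stage and the second highest sympathetic sum. The log2 fold changes of the 8 sympathetic genes from E17 to P1 ran from -1.56 to -0.47, and none passed the edgeR test. The motor neuron sum went from 10.6 to 14.2 CPM at E17 to 4.26 to 7.23 CPM at P1 without overlap. Of its 8 genes 2 were called lower, 1 of them among the 2 that passed the filter on low counts without E13. The pan-neuronal sum went from 162 to 215 CPM to 82.2 to 126 CPM, with 3 of 17 genes called lower and 1 higher. Of the 32 tested further sensory genes 7 were called lower and none higher. Of the 19 that passed the filter on low counts without E13, 6 were lower. The sum over all 39 further sensory genes went from 1220 to 1280 CPM down to 687 to 728 CPM. Of the other lists, 7 of 8 erythroid, 4 of 7 skeletal muscle and 2 of 5 mast cell genes were called lower. So were 1 of 5 cartilage and bone genes and 1 of 5 mesenchymal genes, whereas 1 of 8 immune genes was higher. The Schwann lineage sum went from 2430 to 2640 CPM up to 3470 to 3800 CPM without overlap, with 1 of 6 genes called higher. The endothelial and mural sum went from 304 to 355 CPM down to 218 to 267 CPM without overlap, with no gene called. The satellite glia sum went up, from 250 to 273 CPM to 721 to 856 CPM without overlap, with 2 of 5 genes called higher and 1 lower. The part of these transcripts in the Isl1 values was not tested.

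No step of Runx1 was called after E13. Its stage means ran from 2.91 ± 1.01 CPM at E17 to 4.86 ± 1.19 CPM at P24, and P60 stood at 4.61 ± 1.89 CPM. From E17 to P60 the log2 fold change was 0.66 ± 0.37 (SE; edgeR adjusted p = 0.12). Of all Runx1 counts 35.6% lay in the E13 libraries, as against 34.1% for Trpv1 and 76.7% for Avil. Runx3 ran between 0.24 ± 0.144 CPM at P60 and 0.450 ± 0.392 CPM at P1, with no call in any step. Its libraries at P1 measured 0.0365, 0.250, 0.583 and 0.931 CPM, a spread wider than any difference between the later stages.

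The remaining genes were at the limit of detection in the adult. Drgx had 7, 5, 4 and 1 counts in the 4 P60 libraries, or 0.512, 0.363, 0.249 and 0.0628 CPM, against at most 2 counts in any P24 library. Its log2 fold change from E17 to P60 was 1.45 ± 0.76 (SE; edgeR adjusted p = 0.097), which was not called. Pou4f1 stood at 0.18 ± 0.101 CPM at P60 and 0.165 ± 0.0758 CPM at E17, a difference within the spread of the libraries. Prdm12 had 0, 2, 3 and 1 counts at P60, and Scn10a had 1, 0, 0 and 0. With edgeR none of these 4 genes was called in any step after E13. Drgx was called by DESeq2 for P60 against P24 (2.20, adjusted p = 0.037) and P60 against E17 (1.52, adjusted p = 0.049). Prdm12 was called by limma-voom for P60 against E17, although neither stage held more than 3 counts in any library. Its fold is therefore not given. Both genes passed the filter on low counts through E13 alone, so these calls are a description.

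In 2 steps no member was called by edgeR. Between P1 and P5, 1 member (Isl1) had an unadjusted p under 0.05 with edgeR, 2 with DESeq2 and 1 with limma-voom, which called Isl1; 5.84% of all genes were called in either direction. Between P14 and P24 the numbers at an unadjusted p under 0.05 were 0, 0 and 2 in the same order, none was called by any of the 3 tools, and 2.65% of all genes were called.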

How the data were processed

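The authors deposited 1 table of raw counts, not normalized, for the 28 libraries. The authors prepared stranded poly-A libraries, trimmed the reads, aligned them with STAR (2.6.1c per the submitters' processing notes) and counted them with featureCounts. The processing notes name GRCm38.p5, the study's methods a human build name, and the gene identifiers are mouse. The strand and multimapping settings of the counting are not given in the sources used here. Of 41605 identifiers, 41519 were matched to GENCODE M21 (GRCm38) and 86 were not; Drgx was found under its synonym Prrxl1. All columns were mapped to a library.

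Genes were filtered with edgeR's filterByExpr, scaled by TMM and fitted with the stage as the only term in 1 quasi-likelihood model of all 28 libraries (edgeR 4.0.16, R 4.3.3; common dispersion 0.044), because 4 libraries per stage estimate the spread weakly. The study's methods name no test for this timeline. A gene was called at a Benjamini-Hochberg adjusted p under 0.05 over 17700 genes and at least 2-fold. Folds against a stage with at most 3 counts per library are bounds against 3 counts in its shallowest library, and cover counting error only. The alternatives used DESeq2 1.42.0 and limma 3.58.1, other scaling and filters, a GC correction and libraries left out. The code was tested on simulated data.

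Chi-square per degree of freedom between replicate libraries was 5.21 to 293 over 42 pairs, so none agreed within counting noise. Each library counted as 1 replicate. The labels number the subjects 1 to 4 at each stage. For P1 against E17, the deviations of same-numbered libraries correlated with r of 0.327, 0.149, 0.369 and 0.126. This was the only comparison in which every r exceeded 0.1. The study took the nerves from different animals, so the numbers were not read as pairs of subjects.

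The 9 genes and the marker lists were chosen with earlier results of these data known. All 9 genes were named, and of the other lists the called genes that moved against their list between E17 and E13 and, for the neuron lists only, those with the largest and smallest fold change. Glul and Dbh were named after their values were seen. The lists were other sensory, pan-neuronal, sympathetic and motor neuron genes, and genes of Schwann lineage, satellite glia, immune, mast, cartilage and bone, skeletal muscle, epidermal, endothelial and mural, nerve mesenchymal and erythroid cells. The values of 3 genes of these lists are not reported here and are left out of the sums and counts. Prph stands on the sensory and the motor list. Promoter sequences came from RefSeq (GRCm38.p6) and matched all 9 genes.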

Additional observations from a re-analysis of the deposited data

How the results depend on the processing

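The count of genes called was 9 for E17 against E13, 1 for P14 against P5 and 0 for P24 against P14 in each of 19 alternatives; for E17 against E13 this says nothing of the 4 genes that passed the filter through E13 alone. For P5 against P1, limma-voom called 1 gene. For P60 against P24 the count was 0 without a low-count filter, with the replicate block, with limma-voom and with the GC trend removed, 2 with DESeq2 (Avil and Drgx), and 0 to 1 with 1 library left out. For P1 against E17 it was 0 to 1 with 1 library left out. The replicate block, a term for the replicate number over all 28 libraries, does not pair animals. With this block the Isl1 call was kept (-1.51, edgeR adjusted p = 0.023), and no call changed other than that of Avil for P60 against P24. For P60 against E17 the count was 1 when the fit held only these stages, where 3 of the genes were tested. It was 2 to 3 with 1 library left out. DESeq2 added Drgx (adjusted p = 0.049) and limma-voom Prdm12, and both genes had passed the filter through E13 alone. The log2 fold change of Pou4f1 for P60 against E17 turned to -0.15 with library size only and ran from -0.26 to 0.48 with 1 library left out. Scaling by library size only also moved the summed CPM of the 9 genes to 7.68 at E17 (from 6.66), 5.34 at P5 (from 5.79) and 6.47 at P14 (from 7.90). The median log2 change over all tested genes shifted with it, from -0.08 to -0.33 for E17 against E13 and to -0.11, -0.19, -0.17 and -0.31 for P1 against E17, P5 against P1, P14 against P5 and P60 against E17. Genes called lower for E17 against E13 then numbered 4511 of 6331, against 3758 of 6276. Under that scaling 1284 genes (against 958) were lower for P1 against E17, 493 of 1102 (against 717 of 1033) higher for P5 against P1, 991 (against 1258) higher for P14 against P5, 564 (against 451) higher for P60 against P24, and 3164 higher and 4367 lower (against 3938 and 3097) for P60 against E17. Without a fold minimum 11014 genes were called for E17 against E13 and, in the order of the stages, 5225, 3114, 5233, 964 and 2845 for the later steps (against 2074, 1033, 2127, 469 and 1055), and 11373 (against 7035) for P60 against E17. Depth limited Prdm12 and Scn10a, at or under 3 counts in every library after E13, and Pou4f1 and Drgx, at or under 3 counts in 17 and 19 of the 24. The fits that leave out the E13 libraries tested 5 of the 9 genes.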

Other observations

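Some sensory genes outside the 9 took other courses in the stripped nerve; the genes named here were chosen after their values were seen. From E17 to P60, 4 of the 19 further sensory genes that passed the filter on low counts without E13 were called higher and 8 lower by edgeR. Over all genes tested the shares were 22.2% higher and 17.5% lower. Ret, the receptor for GDNF family ligands, stood at 1.94 ± 0.274 CPM (SD, n = 4) at P5, at 24.4 ± 4.05 CPM at P14, at 32.4 ± 11.7 CPM at P24 and at 8.57 ± 1.78 CPM at P60. Its rise from P5 to P14 was 3.65 on the log2 scale (edgeR adjusted p = 1.9e-07), without overlap of libraries. Like Trpv1, it was thus higher at P14 than at P5.

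Calca, which encodes the neuropeptide CGRP of nociceptors, went from 0.193 ± 0.182 CPM at E17 to 3.6 ± 1.38 CPM at P60 (log2 fold change 4.26, edgeR adjusted p = 6.8e-08). Pvalb went from 0.609 ± 0.164 to 4.36 ± 0.83 CPM (2.81; edgeR adjusted p = 1.5e-06). In both, all 4 P60 libraries were above all 4 E17 libraries. Scn9a, which encodes the sodium channel Nav1.7, took the opposite course, from 48.2 ± 4.65 CPM at E17 to 0.982 ± 0.340 CPM at P60 (-5.60; edgeR adjusted p = 3.9e-09). Its 4 E13 libraries ranged from 7.53 to 126 CPM.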
